A study of Arabidopsis thaliana with 6 samples.

Results

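The subject is where HID1, an Arabidopsis thaliana noncoding RNA studied in seeds that germinate under the red light receptor phytochrome B, gave chromatin peaks at genes that make RNA without coding for protein. The members are the peaks on chromosomes 1 to 5 that overlap by at least 1 bp the body of a gene listed as lncRNA, miRNA, snoRNA, snRNA or tRNA. They number 486 of 10863 deposited peaks, 205 of 4557 in the library from seeds fixed with formaldehyde and 281 of 6306 in the library from seeds fixed with glutaraldehyde. They were selected on the measured peak positions, through that overlap, so the counts and scores below are descriptions of these 2 libraries and carry no test.

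Chromatin isolation by RNA purification (ChIRP) captures an RNA with biotinylated antisense probes and sequences the DNA that comes with it. Both libraries were made from 0.3 g of Col-0 seeds. The seeds had been dried for about 2 months, given white light for 1 h up to plating and then the phyB-on treatment of red light for 5 min at 20 μmol per square metre and second, and kept dark for 48 h. Fixation was with a 1% solution for 20 min before capture with probes along the whole of HID1. Mock libraries with unlabelled probes and input libraries, 2 samples of each among the 6 of the series, were not analysed here. With 1 library per fixative, fixative and library cannot be told apart, no difference between them has a replicate check, and read depth is unknown from peak lists. All seeds were wild type, so no library lacks HID1.

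Noncoding RNA genes fall into classes with different work. Transfer RNAs carry amino acids to the ribosome, small nuclear RNAs (snRNAs) form the spliceosome, and small nucleolar RNAs (snoRNAs) guide the cleavage and chemical modification of ribosomal RNA. MicroRNA (miRNA) genes give short guides that repress messenger RNAs, and long noncoding RNAs (lncRNAs) are a mixed class, many of them transcribed beside or opposite a protein-coding gene. Some plant lncRNAs, such as COOLAIR at the flowering repressor gene FLC, act on the chromatin of the gene they overlap.

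The HID1 gene itself lay under the highest scoring member of each list. Its score was far above that of the next member with glutaraldehyde and close to it with formaldehyde. AT2G35747, the locus taken as HID1 from prior knowledge, is listed in the gene table as a snoRNA of 80 bp on chromosome 2 from 15029832 to 15029911 (TAIR10), and the HID1 RNA is known to be longer than that entry. The formaldehyde peak over it spanned chr2:15029487-15030648, scored 348 and ranked 23 of 4557. The glutaraldehyde peak spanned chr2:15028597-15030657, scored 2149.6 and ranked 1 of 6306. The score is the peak caller's own value per peak as the authors deposited it, and it orders peaks within a list only. The formaldehyde peak lay wholly within the glutaraldehyde peak, which began 890 bp earlier and ended 9 bp later. Among members, the HID1 peak had the highest score of both lists. The next member scored 346 with formaldehyde and 289 with glutaraldehyde, and a ratio of such scores is not a ratio of signal. The probes match the DNA of this gene as well as its RNA, and how much was recovered through the DNA was not tested. In the formaldehyde list 22 peaks outside the members scored higher.

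AT2G35747 is 1 of 7 neighbouring snoRNA entries that lie in 2 groups. The first group, AT2G08765 (80 bp), AT2G35744 (79 bp), AT2G35747 and AT2G08770 (226 bp), lay whole inside the HID1 peak of both libraries, together with the small protein-coding gene AT2G35750, which overlaps AT2G35747 and AT2G08770. The second group, AT2G35742 (80 bp), AT2G08755 (93 bp) and AT2G08760 (225 bp), spans chr2:15027589-15028092. It lay whole inside a separate glutaraldehyde peak at chr2:15027394-15028470, which scored 277, ranked 26 of 6306 and ended 126 bp short of the HID1 peak. That peak also covered the transcribed pseudogene entry AT2G35743 and part of AT2G00880, a misc_RNA entry outside the member biotypes. Only 2 glutaraldehyde members scored above that peak, the HID1 peak and one at the lncRNA AT2G08260. The formaldehyde library had no peak over the second group. The 2 groups hold entries of similar lengths in a similar order, and their sequences were not compared here.

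**Figure D1:**
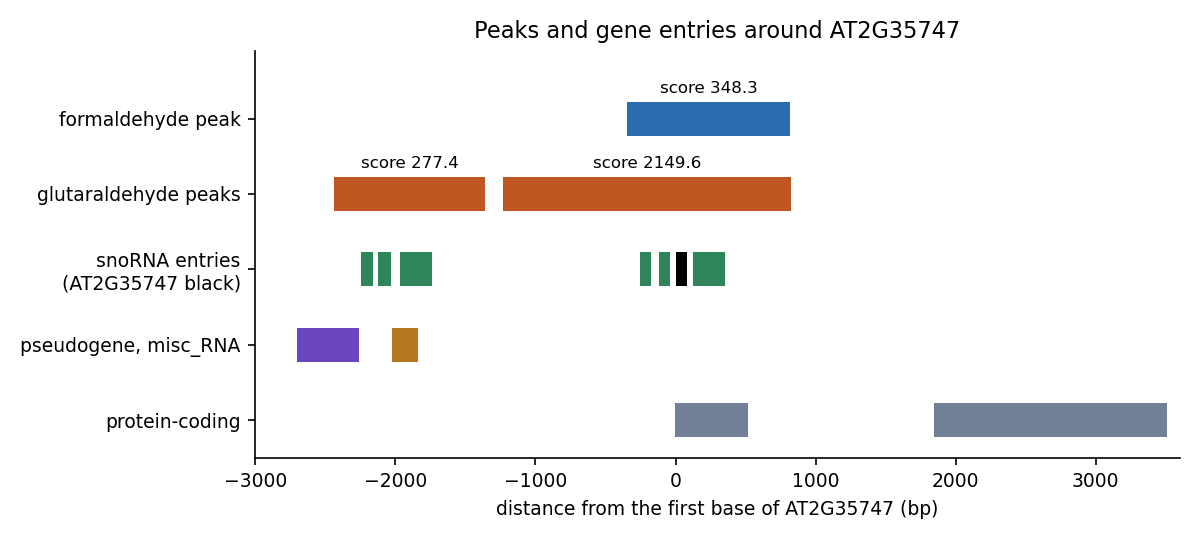
Peaks of both libraries and gene entries around AT2G35747, by distance in bp from its first base. The formaldehyde peak (score 348) covers 4 snoRNA entries, and the glutaraldehyde library has the same 4 under a peak with a score of 2149.6 and 3 more under a separate peak with a score of 277.

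In both libraries a smaller share of noncoding RNA genes than of all genes had a peak. With formaldehyde 221 of 4800 noncoding RNA genes (4.6%) had a peak in the body, against 11.2% of all 37899 genes of the table and 11.4% of protein-coding genes. With glutaraldehyde 315 (6.56%) had one, against 14.1% of all genes and 16.7% of protein-coding genes. Noncoding RNA genes are short, with a median of 275 bp against 2078 bp for protein-coding genes, and a long gene meets more peaks. Per length, noncoding bodies held 51.4 peak midpoints per Mb with formaldehyde (100 midpoints) and 65.3 with glutaraldehyde (127 midpoints), and protein-coding bodies 43.4 and 59.6, with no test of the difference. The noncoding values are mostly those of lncRNA genes (53.8 and 64.9). MiRNA genes held 17.5 per Mb in both lists, from 1 midpoint each, and snRNA and tRNA genes held 0 midpoints with formaldehyde. SnoRNA genes held 64.5 and 129 per Mb, from 2 and 4 midpoints, among them the HID1 peak of each list. With glutaraldehyde snRNA genes held 134 per Mb from 2 midpoints and tRNA genes 63.3 from 3. Densities from so few midpoints do not rank the small RNA biotypes. Pseudogene entries held 75.1 per Mb with formaldehyde and 31.7 with glutaraldehyde. Members made up nearly equal shares of the lists, 4.50% of formaldehyde peaks (95% exact binomial interval 3.92 to 5.14) and 4.46% of glutaraldehyde peaks (3.96 to 5.00). The difference, glutaraldehyde minus formaldehyde, was -0.042 percentage points (Newcombe 95% interval -0.844 to 0.738). These intervals cover counting error only, and neighbouring peaks and genes are not independent.

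**Figure D2:**
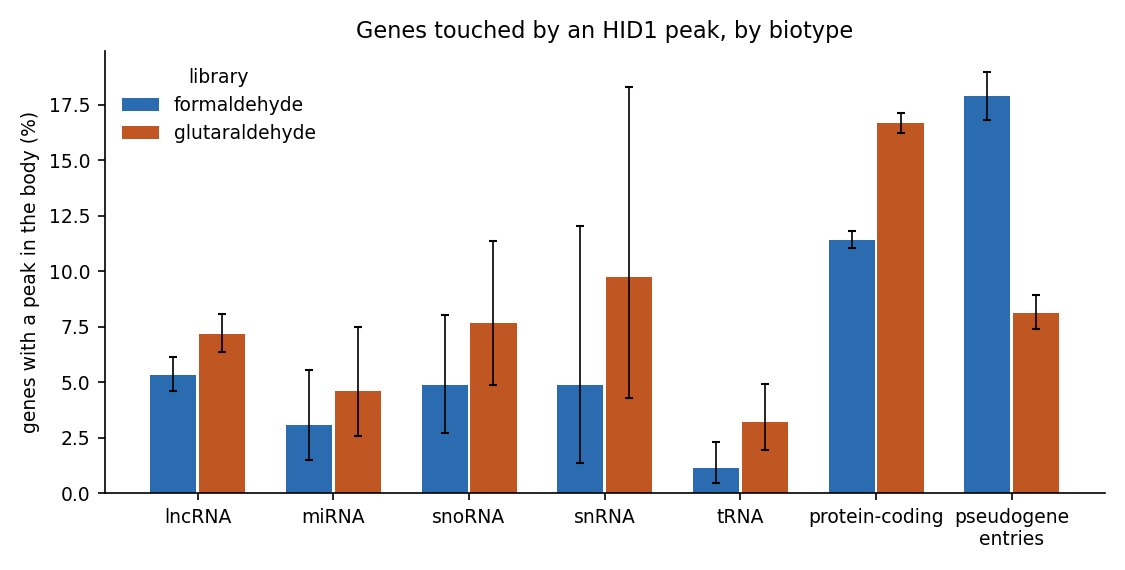
Percentage of genes of each biotype with a peak in the body, for the formaldehyde (blue) and glutaraldehyde (orange) library, with 95% exact binomial intervals. In all 5 noncoding biotypes the glutaraldehyde bar is the higher, as it is for protein-coding genes (11.4% and 16.7%), and the glutaraldehyde list is the longer. Transfer RNA genes, which have the shortest median length (73 bp), are the lowest in both libraries. Pseudogene entries go the other way, 17.9% with formaldehyde and 8.14% with glutaraldehyde.

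By biotype, tRNA genes, which have the shortest median length (73 bp), had the lowest share in both libraries. For lncRNA genes the share was 5.34% with formaldehyde (186 of 3480, interval 4.62 to 6.14) and 7.18% with glutaraldehyde (250, interval 6.35 to 8.09). For snoRNA genes it was 4.88% (14 of 287) and 7.67% (22), and of these genes 4 and 7 lay at the HID1 locus, which leaves 10 and 15 elsewhere. For snRNA genes it was 4.88% (4 of 82) and 9.76% (8), and for miRNA genes 3.07% (10 of 326) and 4.60% (15). For tRNA genes it was 1.12% (7 of 625, interval 0.451 to 2.29) and 3.20% (20, interval 1.97 to 4.899). These overlap the intervals of miRNA genes, 1.48 to 5.57 with formaldehyde and 2.60 to 7.48 with glutaraldehyde. The glutaraldehyde list is the longer, and per 1000 peaks of a list the peaks at lncRNA genes numbered 39.3 with formaldehyde and 37.3 with glutaraldehyde, at miRNA genes 2.19 and 2.22, at snoRNA genes 1.76 and 1.90, at snRNA genes 0.878 and 1.27, and at tRNA genes 1.54 and 3.01. Peaks at small RNA genes of any kind were 0.636% of formaldehyde peaks (interval 0.427 to 0.913) and 0.841% of glutaraldehyde peaks (0.630 to 1.10), intervals that overlap.

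Members did not stand out from their lists in score, HID1 apart. The median score was 77.0 for formaldehyde members and 74.3 for all formaldehyde peaks, and 73.6 for glutaraldehyde members and 72.2 for all glutaraldehyde peaks of the nuclear chromosomes. Scores of 100 or more were held by 58 of 205 formaldehyde members (28.3%, against 26.9% of all) and 67 of 281 glutaraldehyde members (23.8%, against 22.8%). Member peaks were slightly wider than their lists, with medians of 893 against 849 bp and 665 against 630 bp.

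**Figure D3:**
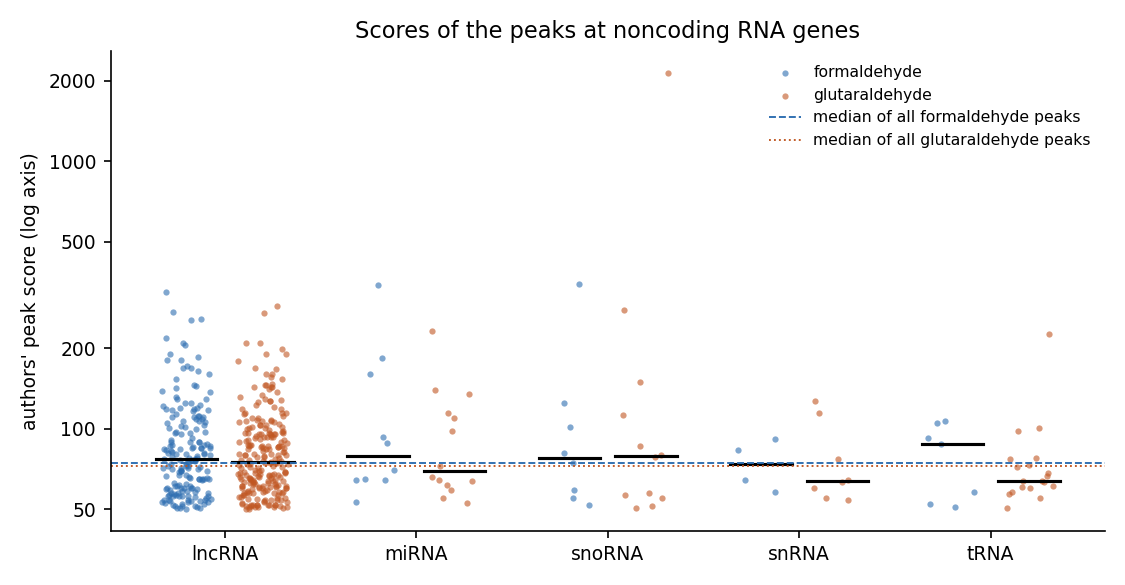
Authors' score of each member peak (log axis) by biotype of the gene touched, formaldehyde in blue and glutaraldehyde in orange, with black bars at the medians and lines at the median of each whole list. Scores compare within a colour only. Member medians of 77.0 and 73.6 lie close to the list medians of 74.3 and 72.2. Single members lie well above them, up to 348 with formaldehyde and, below the HID1 peak at 2149.6, up to 289 with glutaraldehyde.

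Most member peaks also touched a protein-coding gene. With formaldehyde 138 of 205 members (67.3%) did, close to the 66.1% of all formaldehyde peaks, and with glutaraldehyde 168 of 281 (59.8%), below the 71.2% of all. Members that touched neither a protein-coding gene nor a pseudogene entry numbered 51 (24.9%) and 108 (38.4%). Pseudogene entries were touched by 18 formaldehyde members (8.78%, against 21.0% of all) and 6 glutaraldehyde members (2.14%, against 6.80%). In the 32 of 240 windows of 500 kb where the table lists more pseudogene entries than protein-coding genes, which the formaldehyde library favours, lay 25 formaldehyde members (12.2%, against 19.9% of all) and 13 glutaraldehyde members (4.63%, against 5.63%). On chromosomes 1 to 5 in order, members numbered 52, 41, 33, 30 and 49 with formaldehyde and 71, 51, 64, 39 and 56 with glutaraldehyde. The peak midpoint lay inside the noncoding body for 100 formaldehyde and 127 glutaraldehyde members, and outside any protein-coding body as well for 49 and 79 of these. A peak therefore cannot be given to the noncoding gene and not to its neighbour in most places. With formaldehyde 17 peaks touched more than 1 noncoding gene and with glutaraldehyde 29.

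The rule asks for 1 bp of overlap. Where a peak touched several noncoding genes, its longest overlap was taken. The smallest values were then 20 bp in the formaldehyde list, at AT2G08385 and AT5G05705, and 1 and 3 bp in the glutaraldehyde list, among others at AT1G05337 and the tRNA gene AT1G68860. Just outside, formaldehyde peaks ended 3 and 4 bp from AT4G08345 and AT1G09827, and glutaraldehyde peaks 3 and 6 bp from AT4G07535 and AT1G04137. A longest overlap under 20 bp was held by 0 formaldehyde and 10 glutaraldehyde members, and 7 and 8 further peaks lay within 20 bp of a noncoding gene without touching it.

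Long noncoding RNA genes made up most members, 176 formaldehyde and 228 glutaraldehyde peaks that touched no other noncoding biotype. Longer lncRNA genes were touched more often. With formaldehyde 4.37% of lncRNA genes under 300 bp had a peak, 4.97% of those from 300 to under 1000 bp and 11.6% of those of 1000 bp or more. Protein-coding genes of the same lengths stood at 3.52%, 6.07% and 12.5%. With glutaraldehyde the lncRNA shares were 5.996%, 6.29% and 17.3% and the protein-coding shares 5.71%, 8.11% and 18.4%. The lncRNA share was the higher under 300 bp and the lower in both longer classes, in both libraries. The 95% intervals of lncRNA and protein-coding genes overlap in each of these comparisons, which does not measure the difference, and no test was run. From 300 to under 1000 bp the glutaraldehyde intervals barely met, 5.22 to 7.51 for lncRNA and 7.27 to 9.01 for protein-coding genes. Of lncRNA genes whose body touches a protein-coding gene, 6.54% had a formaldehyde and 8.30% a glutaraldehyde peak, and of those that touch none 4.52% and 6.41%.

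**Figure D4:**
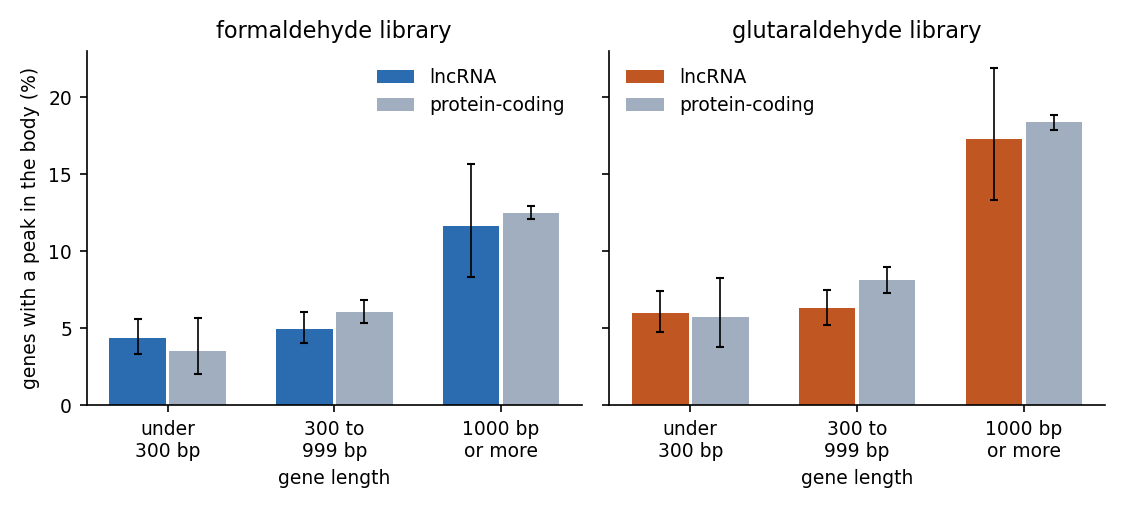
Percentage of lncRNA genes and of protein-coding genes with a peak in the body in 3 classes of gene length, 1 panel per library, with 95% exact binomial intervals. Both kinds of gene rise from the shortest to the longest class. Their intervals overlap in every class, which does not measure the difference between the kinds.

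The highest scoring lncRNA peaks lay at different genes in the 2 libraries. With formaldehyde the highest was at AT4G05745 on chromosome 4, where a peak from 6211694 to 6214302 scored 323 and covered all 278 bp of the gene and touched the pseudogene entry AT4G09875. AT5G04625 (score 273) and AT5G04665 (258) on chromosome 5 followed, both under peaks that also touched a pseudogene entry, AT5G28053 and AT5G28085. With glutaraldehyde the highest was at AT2G08260 on chromosome 2, a gene of 234 bp wholly inside a peak from 12049214 to 12051211 that scored 289. It lies within the body of CNGC15, which encodes a cyclic nucleotide gated channel. AT5G04115 on chromosome 5 (score 272, peak from 9001477 to 9003139) touched no other gene of the table. AT1G07533 on chromosome 1 (score 209) shared its peak with RR19, which encodes a response regulator of the cytokinin pathway.

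In all, 514 of 4800 noncoding RNA genes had a peak in at least 1 list and 22 in both (0.458%), against 2.23% of all genes, 2.41% of protein-coding genes and 3.24% of pseudogene entries. The 22 are 9.95% of the formaldehyde genes and 6.98% of the glutaraldehyde genes, and for protein-coding genes these shares were 21.1% and 14.5%. Shared genes were 4 snoRNA entries, all at HID1, 2 miRNA genes and 16 lncRNA genes. No tRNA gene (0 of 625, which allows a share of up to 0.480%) and no snRNA gene (0 of 82, up to 3.66%) was among them. Of the 16 lncRNA genes, 7 are of 1000 bp or more, 2.20% of that length class, where protein-coding genes stood at 2.76%, and 1 is under 300 bp, 0.0740% of its class against 0.440%.

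Among the 18 shared genes away from HID1, 13 had peaks that met each other and 5 had them at separate places in the gene body. In 5 of the 18 the peaks overlapped by at least 50% of each. Scores in this set ran from 53.3 to 346 with formaldehyde (median 80.8) and from 56.6 to 231 with glutaraldehyde (median 71.2). They exceeded the list median at 11 of 18 genes with formaldehyde and 8 of 18 with glutaraldehyde. Both scores reached 100 at 4 genes, MIR416, MIR405d, AT2G11852 and AT1G09673. The body of 12 of the 18 touches a protein-coding gene.

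**Figure D5:**
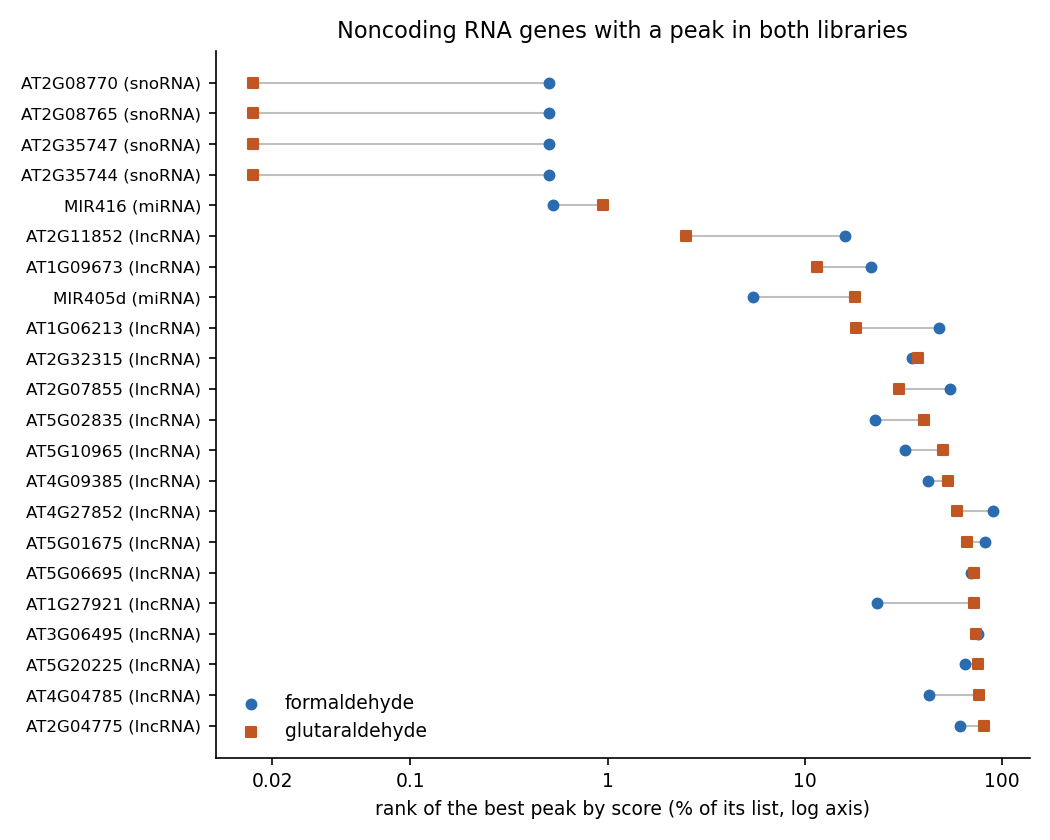
The 22 noncoding RNA genes with a peak in both libraries, each with the rank of its best formaldehyde peak (circle) and glutaraldehyde peak (square) as a percentage of the list (log axis, left is stronger). The 4 snoRNA entries at HID1 and MIR416 lie under 1% in both lists, and most lncRNA genes lie in the weaker part of at least 1 list.

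MIR416 and MIR405d were the shared miRNA genes. MIR416 spans 80 bp on chromosome 2 from 7008520 to 7008599 and lay whole inside both peaks. Its formaldehyde peak, 3620 bp wide (chr2:7005130-7008749), scored 346 at rank 24. Its glutaraldehyde peak (chr2:7007926-7008649) scored 231 at rank 60. The formaldehyde peak also covered the whole pseudogene entry AT2G16140 (2912 bp), and the glutaraldehyde peak reached into it. The centre of MIR416 lay 1620 bp from the midpoint of the formaldehyde peak. MIR416 was not a shared gene where the peak midpoint had to lie inside the gene body. MIR405d spans 86 bp on chromosome 4 from 2789656 to 2789741. A formaldehyde peak from 2788108 to 2789676 (score 183) reached 21 bp into it, and a glutaraldehyde peak from 2789257 to 2789765 (score 110.04) covered it whole, with no other gene of the table under either peak.

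Where both scores were 100 or more, AT2G11852 and AT1G09673 were the lncRNA genes. AT2G11852, 697 bp on chromosome 2 from 4789211 to 4789907, lay under a formaldehyde peak from 4788668 to 4790740 (score 125) and a glutaraldehyde peak from 4789294 to 4790374 (score 189.7, rank 158). The peaks shared 1081 bp and also touched the protein-coding gene AT2G11851. AT1G09673, 1349 bp on chromosome 1 from 28816622 to 28817970, had scores of 110.2 and 129 under peaks that shared 280 bp and touched AT1G76780.

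The other lncRNA genes with peaks that met had a weaker score in at least 1 list. AT1G06213 on chromosome 1, at the protein-coding genes AT1G29040 and AT1G29041, had scores of 76.0 with formaldehyde and 109.7 with glutaraldehyde and 465 bp in common. AT2G32315, beside AT2G32320, had 89.0 and 82.0, and AT2G07855, which overlaps the edge of the carboxypeptidase-like gene scpl10, had 71.3 and 90.0. AT5G02835, next to the auxin induced gene SAUR19 and the lncRNA AT5G02855, had 109 and 79.5, and its peaks met over 8 bp. AT4G09385, within the body of AT4G36770, had 81.0 and 70.2, and its formaldehyde peak also touched the aminopeptidase gene APP1. AT4G27852, which overlaps AT4G27850, had 53.3 and 67.0 with 60 bp in common. AT3G06495, AT4G04785 and AT2G04775 touch no protein-coding gene and had formaldehyde scores of 59.2, 80.6 and 66.8 and glutaraldehyde scores of 59.9, 58.4 and 56.6, and at each of them the peaks overlapped by at least 50% of each.

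The 5 lncRNA genes with separate peaks were all long, from 1578 to 6230 bp, against 295 to 1885 bp for the 11 whose peaks met. AT5G01675, the longest, spans FLC on chromosome 5: the lncRNA entry runs from 3173371 to 3179600 and FLC from 3173382 to 3179448. COOLAIR transcripts are known from the antisense strand of that gene, and the gene table gives no strand. The formaldehyde peak there lay from 3175795 to 3176543 (score 56.4, rank 3720) and the glutaraldehyde peak from 3173129 to 3173738 (score 63.3, rank 4182), 2056 bp apart. Both peaks touch FLC as well as the lncRNA, and both rank in the lower part of their lists. AT5G10965, 4598 bp on chromosome 5 with the protein-coding gene AT5G10970 inside its span, was the shared gene with the most peaks, 2 with formaldehyde (scores 92.6 and 51.5) and 2 with glutaraldehyde (72.2 and 62.4), 948 bp apart at the nearest. AT1G27921, which overlaps the microtubule associated protein gene MAP65-8, had 107 and 60.8 with 170 bp between the peaks. AT5G20225, which overlaps AT5G20220, had 64.8 and 59.0, and AT5G06695, which spans AT5G45030 and overlaps CYTC6A, had 62.3 and 60.9.

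Beyond those 2 shared genes, the miRNA genes with a peak belonged to 1 library each, 8 with formaldehyde and 13 with glutaraldehyde. MIR869 on chromosome 5 had the third formaldehyde score, 161, under a peak from 15890923 to 15892040 that covered its 295 bp and the lncRNA AT5G06005. MIR833b lies within MIR833a on chromosome 1, and they shared a glutaraldehyde peak (chr1:29524333-29525407) that scored 139.9 and also touched AT1G78476. The longest covered bodies were those of MIR5639 (382 bp, formaldehyde, score 53.4), MIR5665 (379 of 479 bp, glutaraldehyde, score 58.7), MIR869, MIR408 (218 bp, formaldehyde, score 64.2) and MIR156i (197 bp, formaldehyde, score 70.0). MIR408 makes a miRNA of the copper response. The MIR156i peak lay on chromosome 1 from 19806578 to 19807700. MIR156i lies within the body of SPL4, so any peak over it touches SPL4 too. SPL genes are the known targets of the miR156 family, and the peak does not link separate loci.

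A list of 55 miRNA genes with roles in seeds, hormones or nutrient supply, all found in the table, was counted in the same way. Of the 55, 0 had a formaldehyde peak and 2 a glutaraldehyde peak, where all 326 miRNA genes had 10 and 15. The list does not hold MIR156i or MIR408, so its count of 0 does not cover the whole miR156 family. MIR157c, a relative of the miR156 family on chromosome 3, had one at chr3:6244580-6245399 that scored 72.4. MIR399b, whose miRNA acts in phosphate supply, lay whole under one at chr1:23345058-23345668 that scored 64.2. MIR173, chosen after its value was seen, makes the miRNA that starts the production of trans-acting siRNAs from TAS1 and TAS2 transcripts, and it lay whole under one at chr3:8235516-8236323 that scored 97.8 with glutaraldehyde.

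Away from the HID1 locus, 7 formaldehyde and 10 glutaraldehyde peaks touched snoRNA genes. Of these, 2 and 3 touched more than 1 snoRNA gene, and 6 and 8 also touched a protein-coding gene, as 66.1% and 71.2% of all peaks did. The genes of this paragraph were named after their values were seen. A glutaraldehyde peak on chromosome 5 from 4865894 to 4866937 (score 85.9) covered the 4 snoRNA genes AT5G02295, AT5G02305, AT5G02315 and AT5G02325, touched the lncRNA AT5G15022 and reached the end of SNL2, which encodes a SIN3-like corepressor known from seed dormancy. The highest formaldehyde scores away from HID1 were 125 at AT2G05525, within the pseudogene entry AT2G10510, and 101 at AT1G06467. A formaldehyde peak on chromosome 3 from 10328203 to 10329102 (score 80.8) covered the 3 snoRNA genes AT3G27865, AT3G05325 and AT3G05335 at AT3G27860. AT5G07095 and AT5G07105 lay under a glutaraldehyde peak with a score of 149. U3B on chromosome 5, 1 of the genes for the U3 snoRNA that guides pre-ribosomal RNA cleavage, had a formaldehyde peak with a score of 74.3 over 263 of its 702 bp. With the HID1 locus, the formaldehyde snoRNA genes came from 8 peaks and the glutaraldehyde genes from 12, so the gene counts of this biotype rest on fewer events than they seem.

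For snRNA genes, U2 copies had glutaraldehyde peaks only, 4 of 23, and U1 copies had none in either list, 0 of 14. U6 copies had 2 of 14 in each list, U4 copies 1 of 11 in each and U5 copies 1 of 14 with formaldehyde. These numbers are too small to rank the kinds. The highest formaldehyde scores were 91.3 at U6.8p, 83.4 at U5.2 and 64.3 at U4.1*. The highest glutaraldehyde scores were 127 at U2.5, whose peak on chromosome 5 from 2974464 to 2975709 also touched AT5G09580 and the heat shock protein gene MTHSC70-2, 115 at U6atac2, which encodes an RNA of the minor spliceosome, and 76.8 at U4.8. All 8 glutaraldehyde peaks at snRNA genes also touched a protein-coding gene, and 3 of 4 formaldehyde peaks did. Among all peaks 71.2% with glutaraldehyde and 66.1% with formaldehyde did so, and these counts are too small to set apart from that.

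For tRNA genes, peaks in either list fell at 14 of 20 amino acid kinds, 5 with formaldehyde and 13 with glutaraldehyde, and at 4 kinds in both lists, always at different genes. The largest kinds, 75 tyrosine, 66 proline and 64 serine tRNA genes, had 0, 0 and 1 gene with a formaldehyde peak and 0, 2 and 2 with a glutaraldehyde peak. The highest glutaraldehyde score was 226, at the methionine tRNA gene AT3G55795 on chromosome 3, where a peak from 20708131 to 20709193 reached 21 bp into the gene and otherwise lay at AT3G55790. The asparagine tRNA gene AT4G12405 (score 100.6) shared its peak with Hop3, a co-chaperone gene, and the glutamate tRNA gene AT2G46120 (score 98.2) with KPHMT1 and the transcription factor gene WRKY43. The highest formaldehyde scores were 107 at the glutamine tRNA gene AT2G16240, 105 at the glutamate tRNA gene AT1G75570 and 92.2 at the alanine tRNA gene AT5G07675. Of 19 glutaraldehyde peaks at tRNA genes 15 also touched a protein-coding gene, and 6 of 7 formaldehyde peaks did, where 71.2% and 66.1% of all peaks did.

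Of 16 noncoding RNAs with a described role, all were found in the table, which lists only 1, FLORE, in the 5 biotypes, since it gives the others as ncRNA or as protein-coding. Of the 16, 0 had a formaldehyde peak and 2 a glutaraldehyde peak, beside 11.2% and 14.1% of all genes. TAS3, whose trans-acting siRNAs repress auxin response factor genes, had one at chr3:5861950-5862669 that scored 113 and lay over 488 of its 947 bp. APOLO, a lncRNA of the auxin response that binds chromatin and that the table lists as protein-coding AT2G34655, had one at chr2:14596341-14596822 that scored 106.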

How the data were processed

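ChIRP peak lists of 2 Col-0 seed libraries were analysed. Each score was deposited by the authors, 1 per peak, and the lists were made per library. Tools and build, per the submitters' processing notes, were Bowtie2 2.1.0 (an aligner), MACS 1.4.2 (a peak caller) and TAIR10. How duplicates and repeats were handled, the calling control and the read numbers were not given in the sources used here, so precision from depth is unknown. In that caller the score is known to be derived from a p-value, and the lowest scores lie at 50.

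Peak starts were converted to count from 1. Gene bodies came from the RefSeq gene table of TAIR10.1, which has no strand, exons or sequence. Its nuclear coordinates are taken as those of TAIR10. Overlaps were computed with Python 3.11.15, numpy 2.4.6 and pandas 2.3.3, and intervals with scipy 1.17.1. The overlap code was tested on simulated intervals. No test was run, since each cross-linker has 1 library. Members and gene lists were chosen with earlier results of these data known. The genes named are those under the HID1 peaks, all genes with a peak in both lists, per biotype and library the 3 with the highest score, the 5 miRNA genes with the longest covered body, and listed genes with a peak, with the genes under the same peak. Alternatives changed the minimum score, list length, overlap, neighbouring coding genes, the HID1 peaks and the library.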

Additional observations from a re-analysis of the deposited data

Results flagged for a closer look

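A glutaraldehyde peak lay outside the 5 nuclear chromosomes, on the mitochondrial genome between 232750 and 233540, where it scored 270.2 and ranked 29 of 6306. It is a signal in data that the comparisons above leave out, no control list was analysed, and it was given to no gene.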

How the results depend on the processing

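Counts at noncoding RNA genes depended on the rules. The difference in share between the libraries lay within its reported interval under each rule. Some rules also lowered both shares, to 2.19% with formaldehyde and 2.01% with glutaraldehyde for midpoints, so that interval cannot show that the difference is stable. Values are given as formaldehyde peaks, glutaraldehyde peaks, formaldehyde genes, glutaraldehyde genes and genes in both lists, in that order, where 205, 281, 221, 315 and 22 were reported. A score of 100 or more left 58, 67, 66, 82 and 8, and the 1000 highest scoring peaks of each list 46, 41, 52, 51 and 7. With the peak midpoint inside the gene body they were 100, 127, 102, 130 and 11. Over noncoding bodies that touch no protein-coding body they were 99, 154, 113, 180 and 8. With at least 50% of the gene body covered they were 138, 166, 151, 189 and 10. Genes in both lists were 9 where the peaks had to overlap by at least 50% of each and 17 where they had to meet. Without the HID1 peaks 18 were left. The 514 genes with a peak in either list became 221 to 315 when 1 library was left out. The difference in share, glutaraldehyde minus formaldehyde, ranged from -0.496 to 0.270 percentage points. Fewer peaks or genes enter under these rules by construction. The HID1 entry AT2G35747 kept a peak in both lists at the stricter scores and at 50% cover. AT2G35747 was lost with midpoints and with bodies free of coding genes. No paired analysis was possible because each cross-linker has 1 library and no list of the mock or input samples was analysed. Depth is unknown, so a gene without a peak was not shown to lack HID1.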

Other observations

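Peaks also touched RNA entries of the table that are outside the 5 biotypes. Entries of the class ncRNA, which holds the TAS genes, had a formaldehyde peak at 8 of 221 (3.62%) and a glutaraldehyde peak at 22 (9.95%), with 0 in both. Entries of the class misc_RNA had one at 26 of 508 (5.12%) and 43 (8.46%), with 3 in both (0.591%). Antisense RNA entries had one at 5 of 79 (6.33%) and 2 (2.53%), with 0 in both. Each of these shares lies below that of all genes, 11.2% with formaldehyde, 14.1% with glutaraldehyde and 2.23% in both. For antisense RNA entries the exact binomial interval reaches that value with formaldehyde (2.09 to 14.2) and in both (0 to 4.56). For ncRNA entries it does so with glutaraldehyde (6.34 to 14.7). The other intervals lie below the value of all genes. Gene length was not matched here, a long gene meets more peaks, and no test was run.

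The 3 shared misc_RNA entries, named after their values were seen, were AT2G00340, AT1G09985 and AT3G06505. AT2G00340 lies near the start of chromosome 2 under a formaldehyde peak with a score of 301 and a glutaraldehyde peak with a score of 325, rank 11 of 6306. AT1G09985 on chromosome 1 had a formaldehyde score of 93.6 and glutaraldehyde peaks of 116 and 144 at separate places in its body. AT3G06505 lies under the same peaks as the lncRNA AT3G06495.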
